A study of Mus musculus with 2 samples.

Results

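The 673 IgG-side regions described here are short stretches of the mouse genome chosen by array signals after dye normalisation. In them the signal of a control precipitation exceeded that of a CREM precipitation at least 4-fold at the median of 3 probes. The regions were found in 1286 of 372989 windows of 3 neighbouring array probes. A window was taken when its median log2 ratio of CREM over IgG was -2 or lower, and windows that shared a probe were merged into a region. Neighbouring probe starts lay at most 500 bp apart, and each ratio was set against the median ratio of its array. Array 1 gave 504 such windows (0.271% of its windows), 274 regions and 1058 probes. Array 2 gave 782 windows (0.418%), 399 regions and 1585 probes. The regions were chosen by the measured ratio itself, so their ratios and signals are given below as a description, and no test is made of them.

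Both arrays carried chromatin of germ cells from testes of adult male C57BL/6 mice, pooled over 5 testes, fixed with formaldehyde and broken by sonication. DNA precipitated with an antibody against CREM was labelled with Cy5, and DNA precipitated with goat IgG, the negative control, was labelled with Cy3. Array 1 and array 2 cover different parts of the genome and share no probe. A single hybridisation was made of each, always with the same dyes. Antibody and dye cannot be told apart, there is no replicate error, and no p-value is given. The labels name germ cells without a marker check, and arrays of precipitated DNA hold no expression values with which the cell type could be checked. Signals are processed intensities in arbitrary units, and intervals for shares are 95% Wilson intervals that cover counting error only.

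CREM belongs to the CREB family of transcription factors, which bind the cyclic AMP response element, and it is best known as an activator of genes in haploid spermatids. Immunoglobulin that recognises no chromatin protein shows what DNA comes down without a specific antibody. CpG islands are GC-rich stretches in which the CpG dinucleotide is not depleted, and they mark many promoters of housekeeping genes and of developmental regulators. GC content and CpG number are given beside the signals, and their part in the ratios was not tested.

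Probes from the lowest regions are shown to let their base composition be seen, with every CpG in capitals, 5′ to 3′ as the array files give them. Positions are on mouse build mm9, and the files give no strand. The first set comes from GC-rich regions, the kind that made up most of the members. The Dnaja2 probe lies at chr8:88079254-88079298, the Foxd2 probe at chr4:114580612-114580656, the Cacna2d1 probe at chr5:15441040-15441084 and the Kif2a probe at chr13:107812663-107812707.
Dnaja2: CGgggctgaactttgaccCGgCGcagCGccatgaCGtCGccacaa
Foxd2: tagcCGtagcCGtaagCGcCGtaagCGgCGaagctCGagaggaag
Cacna2d1: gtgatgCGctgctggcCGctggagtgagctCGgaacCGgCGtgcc
Kif2a: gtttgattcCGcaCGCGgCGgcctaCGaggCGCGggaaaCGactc

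The second set comes from a few regions averaging under 50% GC, which included the lowest ratios of both arrays. In each of those shown, the median probe of the lowest window was well above background in both channels. Single probes can exceed that mean, as the Bmp4 probe shown does with 51.1% GC and a low Rnf151 probe not shown with 54.3%. The Proser2 probe lies at chr2:6054890-6054937, the Stra8 probe at chr6:34870778-34870826, the Rnf151 probe at chr17:24853228-24853272, the Bmp4 probe at chr14:47005501-47005545 and the Med16 probe at chr10:79371714-79371773. The mitochondrial probe lies at chrM:6142-6201, and the last at chr1:24622691-24622750 in a stretch whose probes the array design lists under cDNA names. The Proser2 and Rnf151 probes shown held no CpG and the Bmp4 probe shown held 3, against 5 to 8 CpG in the GC-rich probes above. Other low probes held some, with 3 CpG at Rnf151 and up to 2 at Proser2.
Proser2: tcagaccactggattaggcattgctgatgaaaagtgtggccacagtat
Stra8: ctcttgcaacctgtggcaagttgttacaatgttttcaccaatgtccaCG
Rnf151: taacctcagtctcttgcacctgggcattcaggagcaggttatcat
Bmp4: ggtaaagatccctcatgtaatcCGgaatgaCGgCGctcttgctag
Med16: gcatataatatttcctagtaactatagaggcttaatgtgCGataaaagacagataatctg
mitochondrial: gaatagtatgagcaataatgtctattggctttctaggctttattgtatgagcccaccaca
chromosome 1 stretch: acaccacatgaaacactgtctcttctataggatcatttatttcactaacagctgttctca

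IgG-side regions were GC-rich and CpG-dense. Their probes had a GC content of 61.4% ± 11 on array 1 and 60.3% ± 12 on array 2 (SD over 1058 and 1585 probes), against 42.2% ± 8.54 and 42.1% ± 8.57 for all probes. The same rule turned round found 1010 regions on the CREM side, from 0.572% of the windows of array 1 and 0.725% of those of array 2. Their probes had 42.4% ± 7.92 and 42.9% ± 8.43. A member probe held 4.05 CpG on average on array 1 and 3.84 on array 2, while an average probe of the array held 0.701 and 0.718. The observed number of CpG over that expected from the G and C content was 0.949 and 0.925 in member probes, 0.311 and 0.319 in all probes, and 0.527 and 0.534 in CREM-side probes. By region, 243 of 274 (88.7%) and 340 of 399 (85.2%) had a GC content over 55%, and only 6 and 13 had less than 45%. Sequence was not part of the rule that chose the regions.

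**Figure D1:**
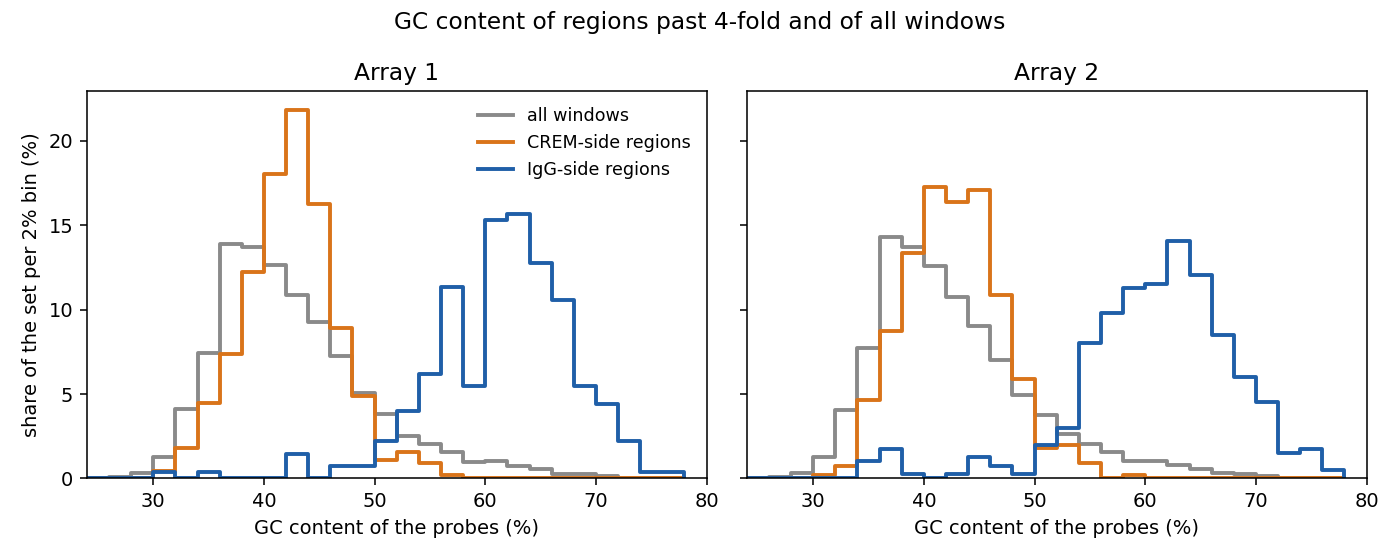
Share of IgG-side regions (blue), CREM-side regions (orange) and all windows (grey) in each 2% bin of GC content, for array 1 and array 2. The IgG-side regions centre near 61% GC, with a small group under 50%, while the CREM-side regions overlie the bulk of all windows near 42%.

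From 45% GC upward, the share of windows that were members rose with GC content. Below that it did not rise steadily. It was highest there at 25 to 30% GC on array 1 (1 of 801, 0.125%) and at 30 to 35% on array 2 (24 of 14199, 0.169%). Array 2 holds mitochondrial DNA and the chromosome 1 stretch, each averaging 34.5% GC, where all 25 and all 14 windows were members. These were not set apart, so the array 2 shares below 45% GC do not describe low-GC windows in general. At 40 to 45% GC it was 0.0152% and 0.00954%. Windows of 45 to 50% GC were members in 0.029% of cases on array 1 (9 of 31044) and 0.0657% on array 2 (20 of 30448). In windows of 60 to 65% GC the share was 4.24% (95% interval 3.64 to 4.93) and 5.51% (4.83 to 6.27), and in those of 70 to 75% GC it was 12.3% (9.6 to 15.7) and 17.7% (14.3 to 21.6). The median ratio of all windows fell along the same axis, from -0.07 and -0.04 at 45 to 50% GC to -1.54 and -1.51 at 70 to 75%. On the CREM side the same GC-rich classes held few windows past 4-fold, with 0 of 3754 and 1 of 3867 at 60 to 65% GC.

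At equal GC content, the share of windows that were members rose with CpG number, though most windows of the most CpG-dense classes were not members. Among windows of 60 to 65% GC, those with at most 5 CpG in their 3 probes held 0 members of 210 on array 1 and 0 of 212 on array 2, which allows shares up to 1.8% and 1.78%. With 6 to 8 CpG the share was 0.5% (0.214 to 1.17) and 0.952% (0.518 to 1.74). With 12 to 14 CpG it was 9.93% (8.08 to 12.1) and 11.7% (9.69 to 14), and with 15 to 17 CpG it was 20.5% (15 to 27.3) and 25.8% (19.6 to 33.2). The same climb was seen at 65 to 70% GC, up to 32.1% and 41.5% of windows with 18 CpG or more. The windows overlap by up to 2 probes and are not independent, which makes the true uncertainty larger than these intervals.

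**Figure D2:**
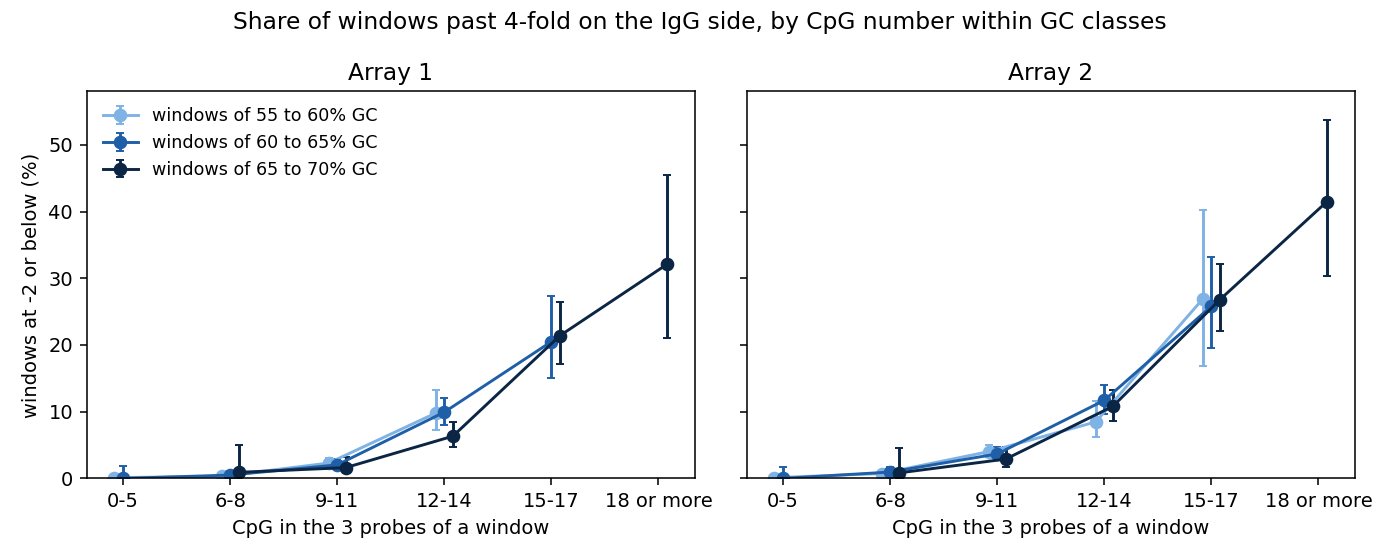
Share of windows at -2 or below (vertical axis, in percent) against the number of CpG in the 3 probes (horizontal axis), in 3 classes of GC content, with 95% Wilson intervals. At equal GC content the share rises from near 0 with few CpG to over 20% with 15 to 17 CpG, where a class has a point there. The class of 55 to 60% GC on array 1 ends at 12 to 14 CpG with 9.79%.

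Member probes were brighter than the average probe in the IgG channel and near it in the CREM channel. Median IgG signals of member probes were 2400 on array 1 and 2000 on array 2, against 750 and 733 for all probes. Median CREM signals were 761 and 630, against 753 and 737. The comparison with probes of equal GC content was different. At 60 to 65% GC, member probes had a median IgG signal of 2578 on array 1 where all such probes had 2970, and a median CREM signal of 749 where all such probes had 1622. On array 2 the IgG medians were 2090 and 2390 and the CREM medians 589 and 1349. Since a low ratio chose the members, a lower CREM than IgG signal relative to such probes follows from the rule.

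**Figure D3:**
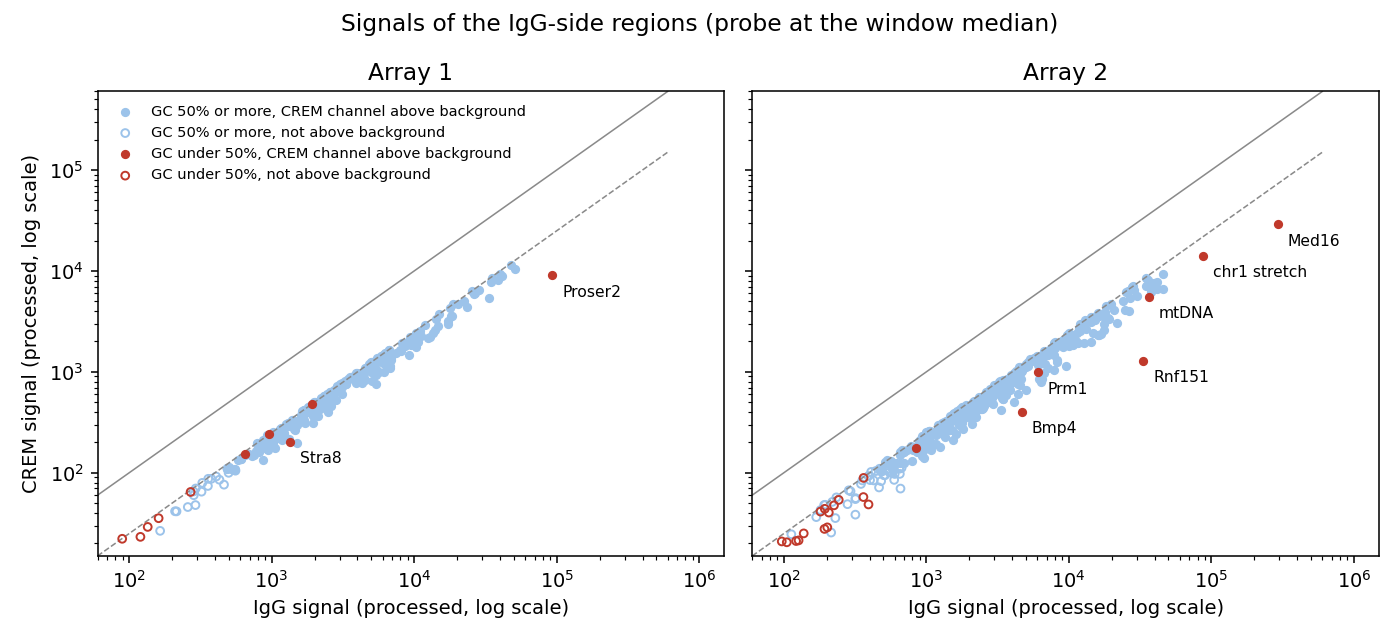
Processed IgG signal (horizontal, log scale) and CREM signal (vertical, log scale) of the probe that sets each region's lowest window, for 274 and 399 regions. Solid line, equal signals; dashed line, 4-fold. Most regions lie just under the dashed line, and Proser2, Med16, Rnf151 and Bmp4, all under 50% GC, lie farthest from it.

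IgG-side regions were short and their probes uneven. The median span was 540.5 bp on array 1 and 570 bp on array 2, against 666 and 663 bp for CREM-side regions. Of the IgG-side regions, 90 and 129 rested on a single window, 148 and 204 on 2 windows, and 36 and 66 on more. All 3 probes passed 4-fold in 27 of 504 windows (5.36%) and 86 of 782 (11%), whereas on the CREM side they did in 16.5% and 18.5%. The least extreme probe of a member window had a median of -0.95 and -0.96, and in 15.1% and 16.4% of windows it lay on the CREM side of 0. Both channels were well above background at all 3 probes in 75.2% and 68.9% of member windows, more than the 51.8% and 53.6% of all windows and the 35.9% and 38.5% of CREM-side windows. The threshold cut through a dense range: 163 and 189 windows lay within 0.1 inside it, and 232 and 248 within 0.1 outside it.

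Outside the regions the ratio turned to the CREM side within 500 bp. Probes up to 250 bp beyond a region's edge had a median of -0.39 and -0.32, and those at 500 to 1000 bp had 0.29 on both arrays. At that distance 18.1% and 16.8% of probes stood at least 2-fold on the CREM side, where 8.88% and 9.62% of all probes did. The same turn was seen around GC-rich windows that were not members. Around 2500 and 2550 merged places of at least 60% GC that did not pass the threshold, probes at 500 to 1000 bp had a median of 0.3 on both arrays, with 16.9% and 18.1% at least 2-fold on the CREM side. The shoulder was thus not particular to the members.

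**Figure D4:**
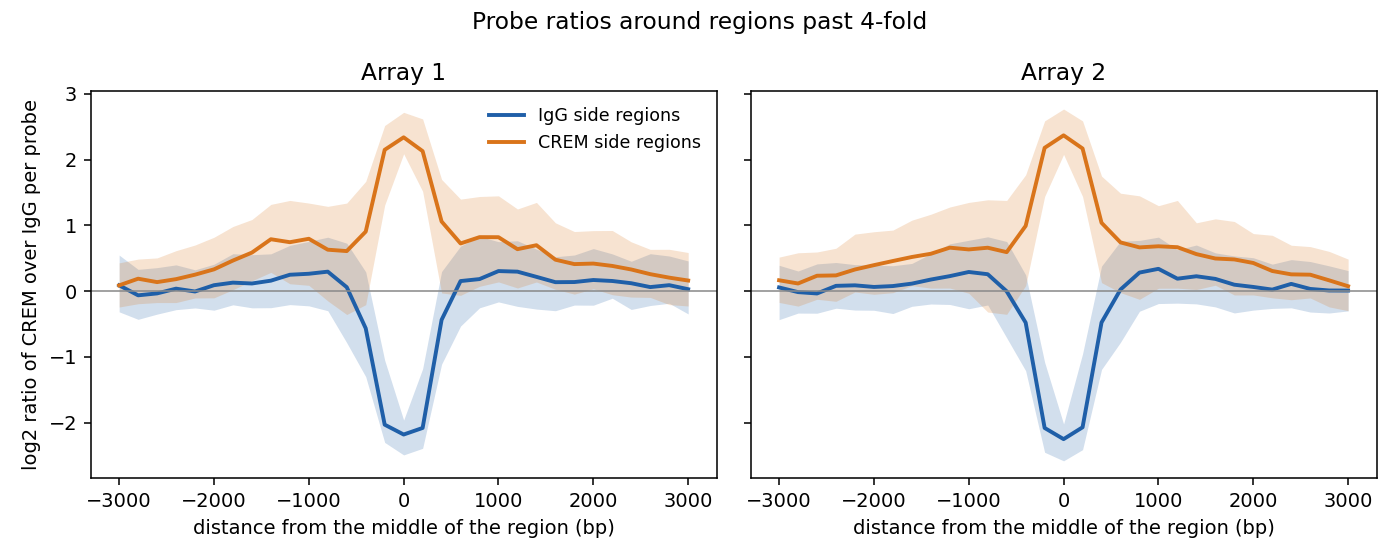
Median log2 ratio of CREM over IgG per probe (lines) with the middle 50% of probes (bands), by distance in bp from the middle of IgG-side (blue) and CREM-side (orange) regions. The IgG-side dip is narrower than the CREM-side peak and gives way to ratios slightly above 0 from about 500 bp on.

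Among the lowest GC-rich regions of array 1 were those of Dnaja2, Foxd2, Foxd3, Ampd3 and Foxe1. At Dnaja2, a co-chaperone gene, the 4 probes read -1.03, -2.84, -3.06 and 0.76, so the last probe lay on the other side of 0. Foxe1 encodes a forkhead factor of thyroid development. Its 7 probes read -2.62, -1.64, -2.25, -2.49, -2.93, -2.64 and 0.3 over 1247 bp, with IgG signals from 527 to 33370. Of the 7, 6 were clearly negative, at signals that differ many-fold. Ampd3, the AMP deaminase gene of red cells, had -0.68, -2.23, -2.65, -3.04 and -0.11, and its last probe was not above background in either channel.

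The GC-rich regions of array 1 with the most probes were Foxe1, Cebpb and Srsf6, with 7 each, and Mcl1, Nudt19 and Rasip1, with 6 each, of which Mcl1 was the lowest. Cebpb encodes a bZIP factor of liver and fat cells. Its 7 probes read -2.38, -1.98, -2.47, -1.9, -2.32, -2.09 and 0.59 over 1457 bp, and only the last, of 30.0% GC, was positive. Srsf6, a splicing factor gene, read 0.16, -2.38, -2.34, -2.3, -2.27, -2.63 and -1.69, with the 5 lowest between -2.63 and -2.27 at IgG signals from 617 to 18066. Mcl1, a survival gene of the Bcl2 family, read -1.59, -2.84, -2.52, -2.42, -2.67 and -0.43. At Cebpb, Srsf6 and Mcl1 the 4 to 6 lowest probes read between -2.84 and -1.9, while the IgG signal differed widely from probe to probe. The 6 negative Foxe1 probes ran wider, from -2.93 to -1.64. A run of low ratios follows from picking regions with many probes in windows at -2 or lower.

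The lowest GC-rich regions of array 2 included those of Sowaha, Dock8 and Snx13. At Sowaha the 5 probes read -1.3, -2.95, -3.27, -0.39 and -3.03, so a probe near 0 lay between low ones. Dock8, which encodes an activator of the GTPase Cdc42 in lymphocytes, read 1.12, -3.03, -2.45, -3.52 and -1.29. The first probe had 42.3% GC and the other 4 had 60.0% or more, and only the first was positive. Snx13, a sorting nexin gene, read -0.86, -2.65, -3.95, -2.93 and -0.86. Its lowest probe had 48.9% GC, less than its neighbours. Lats2, a kinase gene of the Hippo pathway, held the longest GC-rich region by number of probes, with 1.41, -2.22, -2.58, -1.93, -2.19, -2.5, -2.27 and 0.91. The outer probes, of 38.6% and 39.0% GC, were positive and the 6 between them, of 55.6% to 82.2% GC, were all near -2. Mafa and Kif2a passed the threshold in part on dim spots. At Mafa the CREM signal of the probe that set the window was not well above background, which allows only a bound of at least 6.45-fold. At Kif2a it was above background in neither channel and gives no fold.

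Some IgG-side regions carried CREM's own binding motif. The full palindrome, TGACGTCA, was found in 5 member probes of array 1 (0.473%) and 1 of array 2 (0.0631%), where 0.0612% and 0.0511% of all probes held it. Among all probes of 55 to 70% GC the share was higher, with 0.24% to 0.4% by class of 5% on array 1 and 0.153% to 0.327% on array 2. On array 1, 3 of the 5 member probes fell in that range. There 1 of 120 member probes of 55 to 60% GC held it (0.833%, 0.147 to 4.57). At 65 to 70% GC 2 of 166 did (1.2%, 0.331 to 4.29). Both intervals held the share of all such probes. At 60 to 65% GC 0 of 248 held it, which allows up to 1.53%. CREM-side probes of all GC classes held it in 14 cases (0.71%) and 15 cases (0.601%). Those of 55 to 60% GC did in 6.25% (4 of 64) and 0.952% (1 of 105). At 60 to 65% GC it was 3.08% (2 of 65) and 2.27% (2 of 88). The 6 member probes are shown with the palindrome in capitals. They lie at chr1:135975873-135975917 (Btg2), chr4:32325661-32325705 (Bach2), chr4:150229126-150229170 (Errfi1), chr5:112772027-112772071 (Srrd), chr7:146434291-146434335 (Pwwp2b) and chr10:17668012-17668056 (Heca).
Btg2: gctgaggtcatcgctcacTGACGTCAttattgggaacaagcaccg
Bach2: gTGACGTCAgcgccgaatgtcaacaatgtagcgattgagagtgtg
Errfi1: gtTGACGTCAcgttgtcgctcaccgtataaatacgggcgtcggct
Srrd: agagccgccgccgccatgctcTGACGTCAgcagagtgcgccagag
Pwwp2b: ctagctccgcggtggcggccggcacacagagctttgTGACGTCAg
Heca: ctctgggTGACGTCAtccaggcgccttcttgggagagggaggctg

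The 5 probes of array 1 stood on the IgG side themselves. Btg2, an antiproliferative gene, read -2.08 with signals of 1394 in IgG and 333 in CREM. Bach2, which encodes a repressor of the CNC family in B cells, read -2.48 (827 and 150). Errfi1, a feedback inhibitor of the EGF receptor, read -2.24 (517 and 110). Srrd read -2.23 at a far brighter spot (25096 and 5397), and Pwwp2b read -2.58 (1205 and 204). In CREM, too, all 5 spots cleared the background. The Heca probe differed, with 0.5 (1105 and 1570), although its region's lowest window was -2.07.

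Other short motifs were counted on both strands and set beside all probes of equal GC content. The core of the response element, TGACG, part of the full palindrome, was in 22 of 248 member probes of 60 to 65% GC on array 1 (8.87%) and 24 of 367 on array 2 (6.54%), and in 5.26% and 4.89% of all probes of that GC content. The run GCGCGC was in 4.44% and 3.0% of those member probes and in 1.35% and 1.25% of the others with them. A run of 5 G, GGGGG, went the other way, with 4.84% and 4.63% of members and 10.2% of all such probes on both arrays. The GC box, GGGCGG, was in 1.61% and 5.45% of members and 4.5% and 5.04% of all such probes, lower on array 1 and close on array 2. At equal GC content members also held more CpG (4.17 and 4.0 per probe against 2.65 and 2.66). Of these motifs, only the run of G contains no CpG.

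A small group of members had little GC. Of the 673 regions, 32 had a GC content under 50%, and in 12 of these the probe that set the lowest window was well above background in both channels. Proser2, a gene for a proline- and serine-rich protein, had the lowest region of array 1. Its 5 probes read -3.42, -3.37, -3.1, -3.67 and -1.03. The first 4 were among the brightest of the members, with IgG signals of 135593, 93236, 45675 and 173095 against CREM signals of 12763, 9076, 5394 and 13756, while the fifth had 690 and 341. At Rnf151, a RING finger gene active in spermatids, the 4 probes over 990 bp read 0.49, -4.75, -4.71 and -0.16. The middle pair, with IgG signals of 20838 and 33325 and CREM signals of 779 and 1280, were thus flanked by probes near 0.

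Bmp4, a growth factor gene, showed the same sharp edges, with -0.35, -3.46, -3.71, -3.55 and 0.38. Its 3 low probes had IgG signals of 1731, 5642 and 4694 and CREM signals of 158, 434 and 403. Med16, a subunit gene of the Mediator complex, had the brightest member probe, with an IgG signal of 546777 against 50425 in CREM. Its 3 probes read -1.17, -3.45 and -3.35, and the low pair had 31.7% and 36.7% GC. Stra8, the gene that marks entry into meiosis, read -1.54, -2.86, -2.27, -1.73, -2.89, -2.75 and 0.51. Of its 7 probes, 6 were negative, at IgG signals from 1354 to 58356, and the region averaged 42.4% GC. Prm1, the protamine gene that packs sperm DNA, had a region of 5 probes at 45.5% GC. The probes of its lowest window read -1.19, -2.63 and -3.1, and the median one had signals of 6085 in IgG and 990 in CREM. Other measured regions under 50% GC lay nearer the threshold. Among them were Ccz1 (-2.02), Itgal (-2.01) and Mrpl45 (-2.26), and at Mrpl45 the first probe of the window read 2.93, far on the CREM side.

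**Figure D5:**
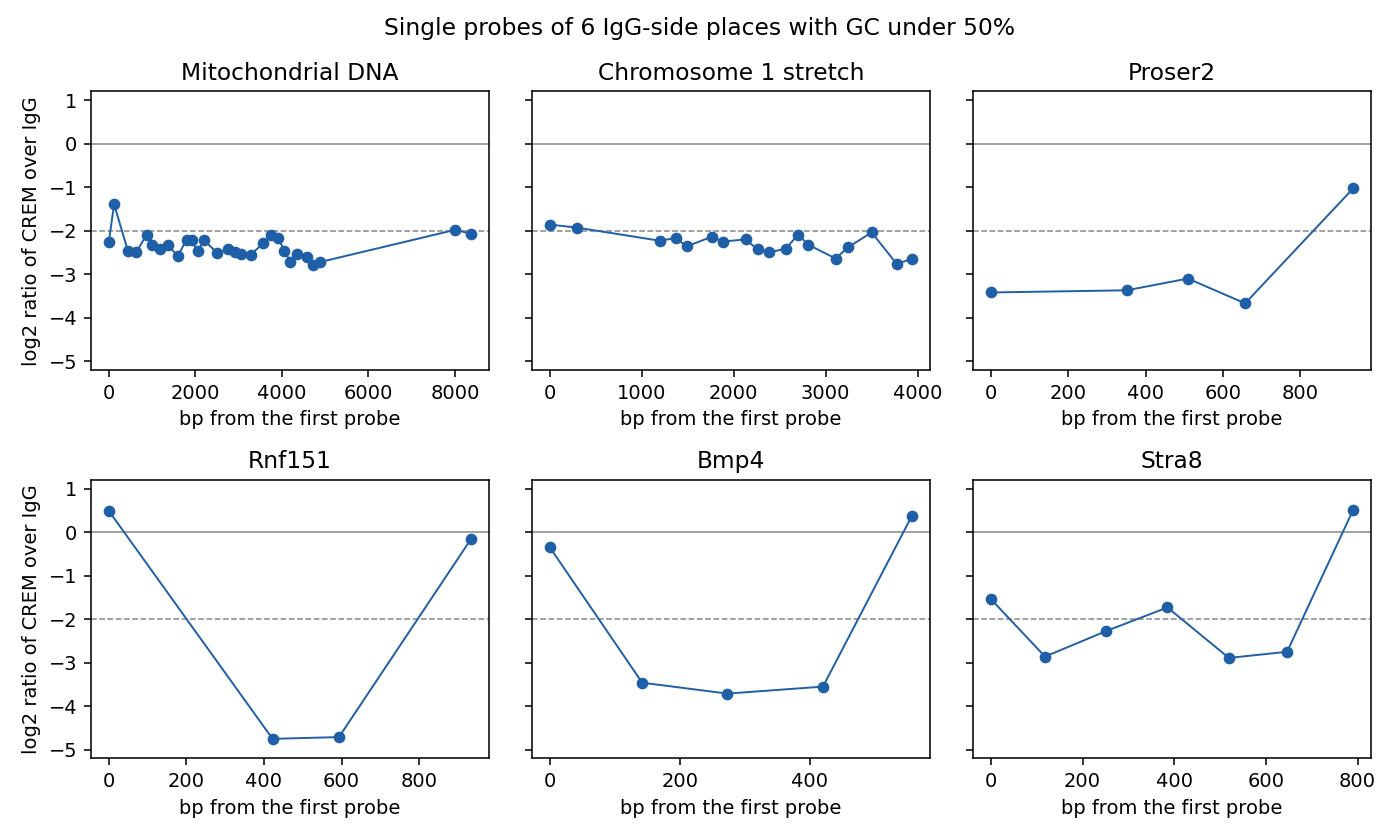
Log2 ratio of CREM over IgG at each probe (points, joined by lines) against distance in bp from the first probe, for mitochondrial DNA, the chromosome 1 stretch, Proser2, Rnf151, Bmp4 and Stra8. Solid line, 0; dashed line, -2. Mitochondrial and chromosome 1 probes stay near -2.4 over several kb, while Rnf151 and Bmp4 return to near 0 at the neighbouring probe.

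Mitochondrial DNA stood wholly on the IgG side. Its 29 probes on array 2 read from -2.78 to -1.39 with a median of -2.43, and 27 of them were at -2 or lower. All 25 mitochondrial windows were members, beside 0.418% of the array's windows. The probes averaged 34.5% GC and 0.9 CpG, so they lacked the GC-rich composition of most other members. They were bright, with a median IgG signal of 28858 (2661 to 147248) and a median CREM signal of 5554 (618 to 25596). Of 703 probes of array 2 at least as bright in IgG as that median, 15 were mitochondrial. The median ratio of the 703 was -0.47, and 109 were at -2 or lower.

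The stretch on chromosome 1 resembled mitochondrial DNA. It was the only part of chromosome 1 on array 2, with 18 probes over 24618917 to 24622907, and all 14 of its windows were members. The probes read from -2.77 to -1.86 with a median of -2.29, at 34.5% GC, and the median IgG signal was 41369. The nuclear genome of the mouse carries copies of mitochondrial DNA, but whether these probes also bind mitochondrial DNA was not tested. Both stretches kept low ratios over several kb. The longest region of array 1 spanned 1457 bp, so members there could not show this. Shorter members such as Srsf6 and Cebpb, picked for their many probes in low windows, kept low ratios at most of their probes too.

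The other 20 regions under 50% GC were dim at the probe that set their window. At Olfr1499, an odorant receptor gene, the 6 probes read -0.53, -3.02, -3.17, -2.08, -1.49 and -2.15, with CREM signals of 106, 48.6, 31.0, 22.7, 21.0 and 23.6, none well above background. Olfr731, Olfr1018 and Olfr39 were the other odorant receptor genes with a member. Over all GC classes, that probe was not well above background in the CREM channel in 24 of 274 regions and 49 of 399. In 15 and 24 of these it was not above background in IgG either, which gives no fold, and the others give bounds.

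Genes with an IgG-side region numbered 694 of 17346 (4.00%), and genes with a CREM-side region 954 (5.50%). The gene lists below were read against these shares. Of 153 developmental transcription factor genes of the Sox, Pax, Fox, Tbx and Lhx families and their relatives, 24 had an IgG-side region (15.7%, interval 10.8 to 22.3). They included Foxd2 (lowest window -2.72), Foxd3 (-2.66), Foxe1 (-2.64) and Sox4 (-2.49), and the other members of this list were Nkx2-1, Sox18, Foxl1, Foxn2, Nkx2-3, Irx5, Foxa1, Nkx6-2, Tbx1, Foxe3, Pax1, Foxo3, Msx1, Pax7, Sox2, Gsx1, Nkx2-4, Pou3f2, Sox11 and Tbx18. Of 60 Wnt, Fgf, Bmp and Gdf ligand genes, 8 did (13.3%, 6.91 to 24.2), among them Bmp4 (-3.55), Wnt5b (-2.55) and Bmp8a (-2.48). The median of each gene's lowest window was -1.36 and -1.28 in these lists and -0.82 over all genes. These genes were also richer in GC and more densely tiled, with a median highest window GC of 60.0% and 60.6% against 54.1%, and 37 and 32 windows per gene against 20. Among all genes whose highest window had 60 to 65% GC, 7.11% had a member, and among those at 65% or more, 16.5%. At under 50% GC it was 0.573%.

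Counts in the other lists were small, and the shares of those with 1 to 3 members have wide intervals. Hox cluster genes had 2 of 33 (6.06%, 1.68 to 19.6), Hoxd13 (-2.32) and Hoxd9 (-2.2). Spermatid genes recalled as lowered in Crem knockout testis had 2 of 30 (6.67%), Rnf151 and Prm1, and acrosome and sperm tail genes 1 of 33 (3.03%), Zpbp. Among meiotic prophase genes 2 of 26 had a member (7.69%), Stra8 and Msh4, and among spermatogonial genes 1 of 24 (4.17%), Pax7. Sertoli and Leydig cell genes, which mark somatic cells of the testis, had 3 of 25 (12%, 4.17 to 30). These were Kitl, the Kit ligand (-2.39), Wt1 (-2.15) and Fdx1 (-2.12). Neuronal genes had 2 of 30 (6.67%), Syn2 (-2.3) and Grin2a (-2.26), and spliceosome genes 2 of 42 (4.76%), Srsf7 and U2af1. The interval of each of these shares held the 4.00% of all genes, except that of Sertoli and Leydig cell genes. At Hoxd13 and Pax7 the probe that set the window was well above background in neither channel, which gives no fold. At Grin2a it was not well above background in CREM, which allows only a bound of at least 3.95-fold. No member lay at 79 ribosomal protein genes, 53 replication-dependent histone genes, 31 somatic targets of cyclic AMP, 29 imprinted genes, 82 protocadherin and cadherin genes, 99 vomeronasal receptor genes or 72 keratin genes. The first 3 of these lists had CREM-side regions at 11 of 79, 9 of 53 and 5 of 31 genes. Counts of 0 in lists of this size allow IgG-side shares up to limits between 3.74% (vomeronasal receptor genes) and 11.7% (imprinted genes). Only the limit of vomeronasal receptor genes lay below the 4.00% of all genes, and their median highest window GC was 38.4%. In the other lists without a member, the absence cannot be told from the rate of all genes. Odorant receptor genes, at a median highest window GC of 39.6%, had 4 of 808 (0.495%). CREM-side regions lay at 5 of the 30 spermatid genes and 7 of the 42 spliceosome genes (16.7% each), beside 5.50% of all genes. None lay at Hox cluster or neuronal genes.

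A larger share of member probes than of probes in general lay close to gene starts, and most of that gap was absent among GC-rich probes. A probe sequence matched the stretch from 250 bases before to 50 after a RefSeq gene start (32851 stretches, assembly GRCm38.p6, matched by sequence) in 18.5% of member probes on array 1 and 17.2% on array 2, against 4.32% and 3.92% of all probes. Within 55 to 70% GC the shares were 17.4% (14.4 to 20.9) and 17.8% (15.2 to 20.7) in members and 15.4% and 14.1% in all probes, so the members' interval held the share of all such probes on array 1 and lay above it on array 2. At least 1 probe matched in 53.6% and 46.9% of regions. Both low Med16 probes and 2 of the Stra8 probes were among the matches. Exons and introns are not stated, since no mm9 annotation was used here.

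IgG-side and CREM-side regions rarely fell on the same gene, at a rate near that of genes in general. On array 1, 13 genes had both, which is 4.74% of the 274 genes with an IgG-side region, where 4.83% of all genes of the array had a CREM-side region. On array 2, 24 genes had both, 5.71% of 420, where 6.17% had a CREM-side region. Foxo3, Mef2d, Sik2 and Srrd were among the genes with both. Of the regions themselves, 12 of 274 (4.38%) and 25 of 399 (6.27%) lay within 2000 bp of a CREM-side region. How often other windows lie that close was not counted, so these shares cannot be called low or high. On array 2, where 0.418% of all windows were members, chromosome X had 33 of 14145 (0.233%) and chromosome 12 had 83 of 12280 (0.676%). Chromosome X probes averaged 40.1% GC, with a median IgG signal of 410 where all probes of the array had 733. The Y had 0 of 146, too few windows to set against the share of the array. Member probes were spread over the slide, with 22.9% to 26.4% in each quadrant, and neighbouring member probes lay a median of 260 spots apart on both arrays.

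How many members were left under another processing differed with GC content, in a direction that depended on the setting. When only probes well above background in both channels were kept, a window at -2 or lower was left in 178 of 201 regions over 65% GC (88.6%) and in 11 of 32 under 50% GC (34.4%). When each probe's ratio was set against the median of probes in the same 2% bin of GC content, it was left in 0 of 201 and in 25 of 32. That outcome follows largely from the bins' medians, which lie near 0 under 50% GC and below -1 at 65 to 75% GC, and 17 of the 25 regions were not left under the filter on both channels. In the authors' deposited values, which hold a loess step within each array, 138 of 673 regions were left, and the share was 28.9% over 65% GC and 25% under 50%.

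Signals before dye normalisation were low on the whole array. The median net signal of member probes was 124 in IgG and 140 in CREM on array 1, where all probes had 48.9 and 138, and 99.6 and 102 on array 2, where all probes had 46.8 and 118. With normexp background correction, which here adds an offset of 50, only Proser2, Rnf151, Bmp4 and Med16 were left. Proser2 and Bmp4 were the only members kept under all 8 of the settings compared region by region.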

How the data were processed

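Each array is a group of 1 sample. Per the file headers, the deposited scanner files give intensity per spot and channel from Feature Extraction 10.7.1.1, as scanned and as processed signals that are background-subtracted and dye-normalised, on build mm9. The authors' deposited log2 ratios were returned by subtracting the median background and applying limma's within-array loess (correlation 1 over 243464 and 243456 spots). Per the submitters' processing notes, limma was run under R 2.10.1. Other deposited columns, per the file headers, are log10 ratios and flags.

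The ratio used was log2 of processed Cy5 over Cy3, centred on each array's median (shifts of 0.013 and 0.0074), with no loess. Of the measured probes, 236850 and 236759 were used, after removal of outlier spots (46 and 9) and of probes with no position (299 and 417); control spots played no part. Median processed signals were 750 in IgG and 753 in CREM on array 1, and 733 and 737 on array 2. The IgG channel was well above background at 77.4% and 78.4% of probes. No measured probe was spotted more than 1 time. Control probes with at least 12 spots had a median SD of 0.27 and 0.33 in log2 ratio, which covers spotting error only.

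A window belonged to the gene that the array names for its middle probe, with symbols updated through RefSeq names of assembly GRCm38.p6. The named regions were, per array, the 12 lowest and the 5 with the most probes, and the 3 lowest members of each of 18 gene lists. Not all are named in the text, and some are not reported here. The carriers of the response element, the regions under 50% GC, further list members and the genes with regions on both sides were chosen after their values were seen. The members, the lists and this rule were chosen with earlier results of these data known. Dim ratios are bounds: the CREM signal was replaced by the lowest signal of any probe well above background (99.4 and 103) where its own was lower. The alternatives were other background corrections, loess, the authors' values, no centring, filters on spot quality, changes of window size, gap, statistic and threshold, and removal of the GC trend. Removal of GC and CpG trends together was added after seeing the data. The scripts were tested on simulated data and ran on Python 3.11.15, numpy 2.4.6, pandas 2.3.3, R 4.3.3 and limma 3.58.1.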

Additional observations from a re-analysis of the deposited data

How the results depend on the processing

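No paired analysis was possible because each group is a single array. With 1 array per group, nothing here can be left out in turn.

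The main values were 504 windows, 274 regions and a mean region GC of 61.5% on array 1, and 782, 399 and 61.0% on array 2. Within-array loess of the processed signals, no centring, filters on probes well above background in at least 1 or in both channels, the filter on saturated or non-uniform spots, and gaps of 300 or 1000 bp kept all these counts within 1.5 times. Normexp correction left 3 and 5 windows and 1 and 3 regions, with a mean GC of 42.3% and 44.8%. Subtracting the local background left 68 and 122 windows and 38 and 71 regions, and the mean GC of array 2 moved to 53.7%. The authors' values gave 99 and 181 windows and 56 and 83 regions. Windows of 5 probes gave 117 and 231 windows and 54 and 83 regions. The mean of 3 probes gave 277 and 446 windows, and requiring all 3 probes 27 and 86 windows and 20 and 47 regions. At a threshold of -1.5 there were 2837 and 2981 windows and 1318 and 1348 regions, and at -2.5 there were 53 and 161 windows and 29 and 91 regions. Removing the GC trend left 27 and 130 windows and 13 and 51 regions, with a mean GC of 44.3% and 46.2%. Removing GC and CpG trends together left 22 and 97 windows and 10 and 32 regions, with 41.7% and 41.3%. By middle probe, 99 of 99 and 181 of 181 windows of the authors' values were among the main windows, against 202 of 277 and 357 of 446 for the mean of 3 probes. Beyond the constructions themselves, the cause of these changes was not tested.

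Of 722 values of the 49 named regions under the alternatives, 402 moved by less than the control-spot SD, 317 by more, and 3 changed sign. All 3 belong to U2af1, which read 1.07 in windows of 5 probes and 1.45 with starts at most 300 bp apart or with the highest of 3 probes. Rnf151 ranged from -4.71 to -0.16, since its low pair of probes does not fill 3 probes. Signal over background limits the 24 and 49 regions whose setting probe was not well above background in CREM.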
